A study of Mus musculus with 12 samples.

Results

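The death receptor pathway was followed through 8 genes, chosen by name and read by their gene identifiers out of 55414 gene records. They encode the ligands FAS ligand (Fasl) and TRAIL (Tnfsf10), the receptors FAS (Fas) and the TRAIL receptor (Tnfrsf10b), the adaptor FADD (Fadd), caspase-8 (Casp8), its inhibitor c-FLIP (Cflar) and the kinase RIPK1 (Ripk1). All 8 were counted in every library and passed the filter on low counts in every comparison. RNA came from CD4+ T cells purified from the spleen of male wild-type BALB/c mice of 18 weeks of age, with ligature-induced periodontitis (LIP group) or without a ligature (CTL group). Cells were collected fresh (day 0) or after 2 days of culture (day 2), with 3 libraries in each of the 4 groups. According to the labels, the culture held IL-2 at 10 ng/mL, anti-TCRβ at 1 µg/mL and anti-CD28 at 1 µg/mL, whereas the study's methods give other amounts of IL-2 and of anti-TCRβ. Among the day 2 treatment labels, anti-CD28 stands for CTL 92 and LIP 90, whereas CTL 93 and LIP 96 carry anti-CD29 and both libraries numbered 97 carry anti-CD30. For the culture, the study's methods name no antibody besides anti-TCRβ and anti-CD28. Stimulation and time in culture cannot be told apart, because no library came from unstimulated cultured cells.

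Death receptors are members of the tumor necrosis factor receptor family that carry a death domain in the cytoplasm. When FAS or the TRAIL receptor binds its ligand, FADD is recruited and brings in caspase-8, which is activated by dimerization and cleaves further caspases, unless c-FLIP takes its place. RIPK1 joins related complexes and either supports survival signals or, when caspase-8 is blocked, leads through RIPK3 and MLKL to necroptosis, while in T cells the FAS pathway is known for removing activated cells after an immune response.

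The libraries held from 6249018 to 7845676 counts on day 0 and from 8691699 to 12866718 on day 2. Levels are given in CPM, counts scaled to a common library total after TMM normalization, so that each level is relative to all other RNA. A count of 0 allows up to 3 counts, or 0.269 to 0.452 CPM by library, from counting error only. T cell markers (Cd3e, Cd3d, Cd3g, Cd4 and Cd5) summed to between 1570 and 2831 CPM, against at most 22.1 CPM for the summed markers of any other cell type. LIP 90 of day 2 stood apart from the other LIP libraries of that day, since without it 2014 genes passed the test of LIP against CTL on day 2 and with it none of 14041. CTL 94 stood apart less on day 0, where 60 genes passed with it and 658 without it. The labels do not say that each library came from its own animal, so p-values measure the spread between these libraries, which may be technical. A gene was counted as changed at an adjusted p under 0.05 in edgeR's quasi-likelihood test over all genes tested.

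Stimulation changed 4 of the 8 genes in each group, and these were the ligands and the receptors. Fas and Tnfrsf10b rose, Fasl and Tnfsf10 fell, and Fadd, Casp8, Cflar and Ripk1 did not pass the test in either group. Over all 15475 genes tested, 69% passed in CTL (35.3% higher and 33.7% lower) and 71.8% in LIP (36.6% higher and 35.2% lower), so the share of the 8 genes that passed was below the background. Their median log2 fold change was -0.15 in CTL and 0.14 in LIP, beside -0.02 and -0.0028 over all genes.

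**Figure D1:**
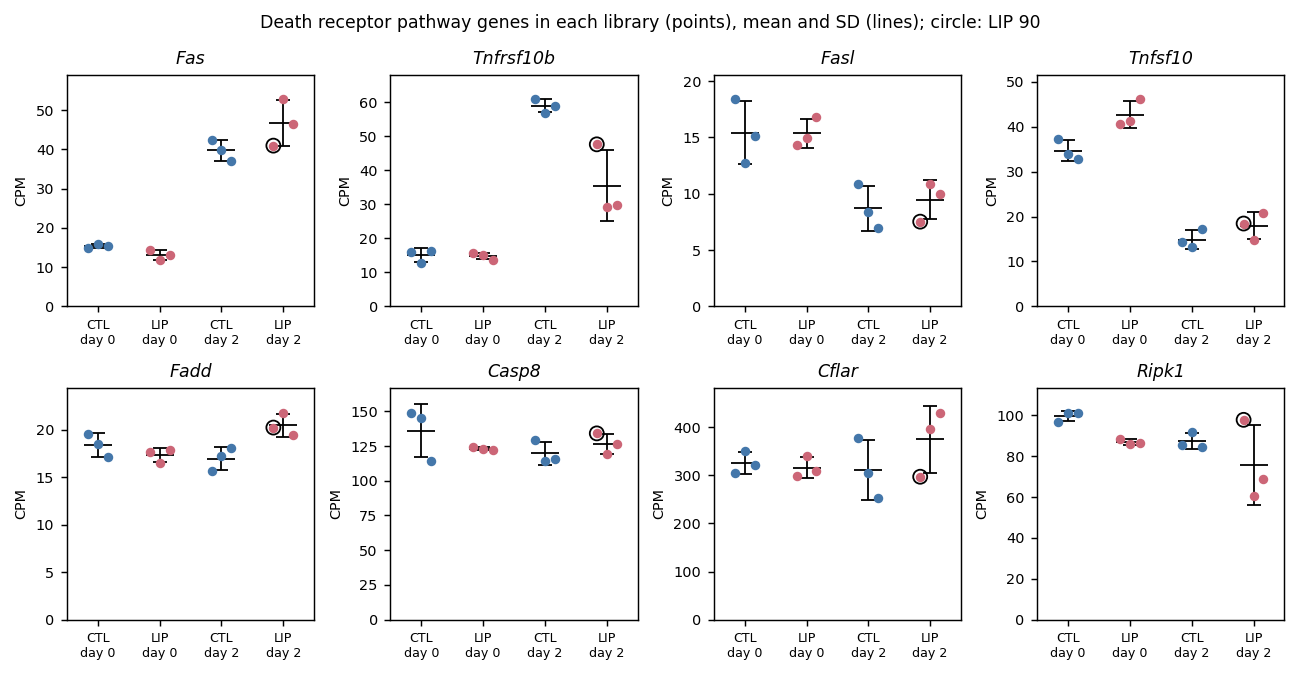
Level in CPM (vertical axis, from 0) of each of the 8 genes in the 12 libraries by group, with the mean (wide line) and SD (bars) of 3 libraries; the black circle marks LIP 90 of day 2. Fas and Tnfrsf10b stand higher and Fasl and Tnfsf10 lower on day 2, and in Tnfrsf10b the circled library lies between LIP 96 and 97 and the CTL libraries.

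Tnfsf10 encodes TRAIL, which triggers death through its receptor on the same or neighbouring cells. Its level on day 0 was 37.2, 34.0 and 32.8 CPM in the CTL libraries (88, 89 and 94) and 40.5, 41.4 and 46.1 CPM in the LIP libraries (92, 93 and 94). On day 2 it was 14.4, 13.1 and 17.2 CPM in the CTL libraries (92, 93 and 97) and 18.5, 14.8 and 20.7 CPM in the LIP libraries (90, 96 and 97). All 6 libraries of day 2 were below all 6 of day 0. Tnfsf10 fell with stimulation by 1.22 ± 0.142 (SE) on the log2 scale in the CTL group (adjusted p = 4.8e-06) and by 1.25 ± 0.139 in the LIP group (adjusted p = 2.7e-06). In bulk RNA, fewer cells that express a gene and less RNA per cell cannot be told apart. On day 0, all LIP libraries were above all CTL libraries, at 0.31 ± 0.095 on the log2 scale and an unadjusted p of 0.00721. This did not pass after adjustment (adjusted p = 0.185, and 0.12 to 0.672 over the alternatives without a replicate block). The groups overlapped on day 2, at 0.26 ± 0.183 (adjusted p = 0.513).

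Fasl encodes FAS ligand, by which activated T cells and NK cells kill cells that carry FAS. It was counted at 18.4, 12.8 and 15.1 CPM in the CTL libraries and at 14.3, 14.9 and 16.8 CPM in the LIP libraries of day 0. On day 2 the levels were 10.9, 8.36 and 6.93 CPM in the CTL libraries and 7.52, 10.9 and 9.98 CPM in the LIP libraries. LIP and CTL overlapped on both days, and day 2 lay below day 0 without overlap in both groups. Fasl fell by 0.81 ± 0.202 on the log2 scale in CTL (adjusted p = 0.0027) and by 0.70 ± 0.2 in LIP (adjusted p = 0.00623). LIP over CTL gave 0.01 ± 0.154 on day 0 (adjusted p = 0.989) and 0.10 ± 0.235 on day 2 (adjusted p = 0.862).

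NK cells also express both ligands, and the summed NK markers fell from day 0 to day 2 as both ligands did. On day 0 all LIP libraries were above all CTL libraries in this sum and in Tnfsf10, whereas in Fasl the groups overlapped. The summed level of the 3 NK markers (Ncr1, Klrb1c and Klre1) was 2.05 to 5.92 CPM in the CTL libraries and 5.93 to 10.2 CPM in the LIP libraries of day 0. On day 2 it was 0 to 0.454 CPM in the CTL libraries, 1 of which had all 3 markers at 0, and 0.0896 to 1.22 CPM in the LIP libraries. The summed level of the 7 myeloid markers was 4.58 to 11.9 CPM on day 0 and 0.682 to 2.06 CPM on day 2, and S100a8 and S100a9 were at 0 in all libraries. The cells had been purified by magnetic negative selection, a step meant to remove NK and myeloid cells. The part of NK and myeloid cells in the levels of Tnfsf10 and Fasl was not tested.

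Fas encodes the receptor of FAS ligand. On day 0 it was counted at 14.9, 15.9 and 15.4 CPM in the CTL libraries and at 14.3, 11.8 and 13.1 CPM in the LIP libraries. On day 2 the levels were 42.5, 39.8 and 37.1 CPM in the CTL libraries and 40.9, 52.7 and 46.5 CPM in the LIP libraries. Every LIP library lay below every CTL library on day 0, while on day 2 the groups overlapped and the LIP group had the higher mean. Fas rose with stimulation 2.58-fold in the CTL group (log2 fold change 1.37 ± 0.124, adjusted p = 4.33e-07) and 3.57-fold in the LIP group (1.83 ± 0.126, adjusted p = 2.84e-08). LIP over CTL was -0.23 ± 0.131 on day 0 (adjusted p = 0.463) and 0.22 ± 0.135 on day 2 (adjusted p = 0.447). The rise in the LIP group exceeded that in the CTL group by 0.47 ± 0.175 on the log2 scale, which did not pass the test of the difference (unadjusted p = 0.019, adjusted p = 0.211). Without LIP 90 of day 2 this difference was 0.56 ± 0.162 and passed it (adjusted p = 0.0432). On day 2 that leaves LIP 96 and 97, with summed B cell markers at 22.1 and 19.6 CPM, against 0.896 CPM in LIP 90. Their CD8 T cell markers summed to 13.2 and 9.20 CPM, against 4.93 CPM. The part of these cells in the level of Fas was not tested.

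Tnfrsf10b encodes the death receptor for TRAIL, and it showed the largest rise of the 8 genes in the CTL group. On day 0 it was counted at 16.1, 12.6 and 16.3 CPM in the CTL libraries and at 15.6, 15.1 and 13.8 CPM in the LIP libraries. On day 2 the levels were 60.9, 57.0 and 59.1 CPM in the CTL libraries and 47.7, 29.3 and 29.7 CPM in the LIP libraries. The groups overlapped on day 0, and on day 2 all LIP libraries were below all CTL libraries, LIP 90 the least. Stimulation raised Tnfrsf10b 3.93-fold in CTL (log2 fold change 1.98 ± 0.18, adjusted p = 4.47e-07) and 2.41-fold in LIP (1.27 ± 0.18, adjusted p = 2.67e-05).

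The log2 fold change of Tnfrsf10b in LIP over CTL was -0.01 ± 0.143 on day 0 (adjusted p = 0.982) and -0.74 ± 0.188 on day 2, a 1.67-fold lower level. The day 2 difference had an unadjusted p of 0.0037 and did not pass after adjustment (adjusted p = 0.142). It passed with DESeq2 (-0.73 ± 0.214, adjusted p = 0.0255), without the filter on low counts (-0.70 ± 0.175, adjusted p = 0.0227), and with all 12 libraries in one fit (-0.73 ± 0.167, adjusted p = 0.0277). It also passed without LIP 90, at -0.98 ± 0.118 (adjusted p = 0.00102). Of 10 alternatives without a replicate block only these 4 passed, and the adjusted p of the others ran up to 0.528. The rise with stimulation was smaller in the LIP group, with a difference of -0.71 ± 0.252 on the log2 scale (unadjusted p = 0.0145, adjusted p = 0.189). Without LIP 90 of day 2 it was -0.98 ± 0.168 (adjusted p = 0.00247), and no other alternative made this difference pass.

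The libraries in which Tnfrsf10b was lowest on day 2 also held more RNA of B cell and CD8 T cell markers. The summed level of the 4 B cell markers was 22.1 CPM in LIP 96 and 19.6 CPM in LIP 97, against 0.896 CPM in LIP 90, 2.33 CPM in CTL 92 and 2.39 CPM in CTL 93. It was 14.5 CPM in CTL 97, where Tnfrsf10b was at 59.1 CPM. Cd8a and Cd8b1 summed to 13.2 CPM in LIP 96 and 9.20 CPM in LIP 97, and to 4.43 to 6.33 CPM in the other libraries of day 2. The part of these cells in the level of Tnfrsf10b was not tested. By the antibody in the label, Tnfrsf10b on day 2 was at 60.9 CPM (anti-CD28), 57.0 CPM (anti-CD29) and 59.1 CPM (anti-CD30) in CTL. In LIP the library labelled anti-CD28 was the high one, at 47.7 CPM, against 29.3 CPM (anti-CD29) and 29.7 CPM (anti-CD30). With 1 library per label and group, the label and the library cannot be told apart, and the study's methods name anti-CD28 and neither anti-CD29 nor anti-CD30.

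**Figure D2:**
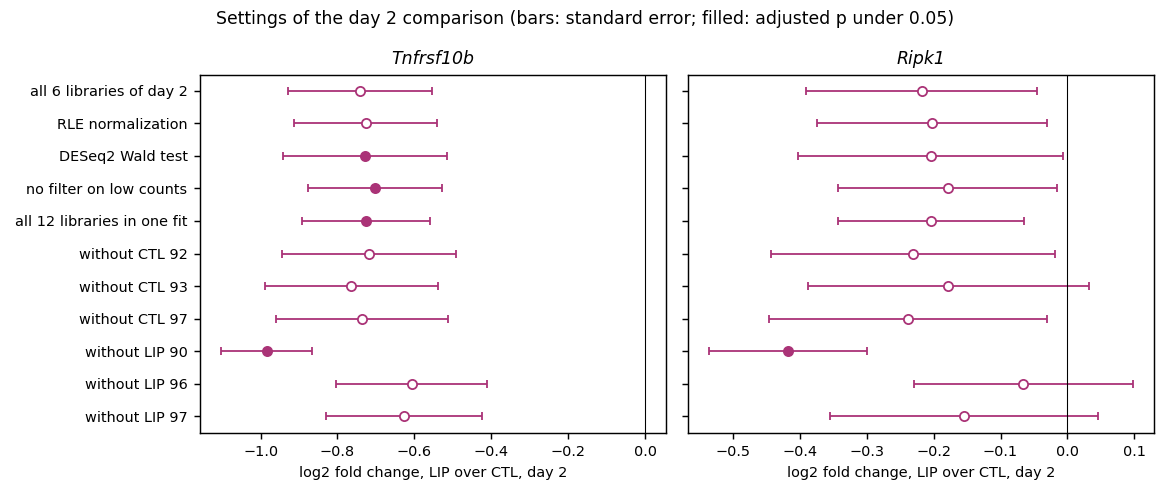
Log2 fold change of Tnfrsf10b (left) and Ripk1 (right) in LIP over CTL on day 2 (horizontal axes), with all 6 libraries, under each alternative without a replicate block and with each library left out; bars give the standard error and filled points an adjusted p under 0.05. For Tnfrsf10b all values lie between -0.98 and -0.61, and without LIP 90 both genes pass.

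The sequence before the start of the genes whose levels changed is shown for Fas, Fasl and Tnfsf10, as far as it lies outside exons, because these genes are the ones that stimulation moved up or down. RefSeq promoter entries were given for 7 of the 8 genes, all but Tnfrsf10b, and their bases were matched to GRCm39. Fas lies on chr19:34268001-34305173 (plus strand), Fasl on chr1:161608258-161616075 (minus strand), Tnfsf10 on chr3:27371033-27396576 (plus strand) and Tnfrsf10b on chr14:70004916-70021860 (plus strand). The stretches begin 250 bases before the RefSeq start, are written 5′ to 3′ on the strand of the gene, and lie on chr19:34267809-34268000, chr1:161616076-161616314 and chr3:27370976-27371032. Capitals mark matches, on either strand, to AP-1 (TGANTCA), NF-kB (GGGANTTCC), interferon response (GAAANNGAA), STAT (TTCNNNGAA) or GC box (GGGCGG) letters.
Fas: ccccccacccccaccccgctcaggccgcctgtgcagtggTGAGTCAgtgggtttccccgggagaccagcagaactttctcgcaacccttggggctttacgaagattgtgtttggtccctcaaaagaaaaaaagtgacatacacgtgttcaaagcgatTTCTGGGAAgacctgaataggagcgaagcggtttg
Fasl: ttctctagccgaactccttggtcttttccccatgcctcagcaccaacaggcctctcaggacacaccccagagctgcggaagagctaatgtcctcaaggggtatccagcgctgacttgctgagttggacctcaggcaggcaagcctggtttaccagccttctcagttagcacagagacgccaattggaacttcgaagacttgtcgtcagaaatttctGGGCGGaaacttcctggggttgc
Tnfsf10: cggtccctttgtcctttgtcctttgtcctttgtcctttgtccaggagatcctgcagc
The Fas stretch of 192 bases held an AP-1 match 211 bases and a STAT match 93 bases before the start. The same window held AP-1 letters in 5.28% and STAT letters in 5.56% of all 32851 promoters. The Fasl stretch of 239 bases held a GC box 34 bases before the start, as did 31.2% of all promoters in that window, and the Tnfsf10 stretch of 57 bases held none of the motifs. The matches do not overlap each other, and they describe these letters only.

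Fadd encodes the adaptor that joins the receptors to caspase-8. It was counted at 19.6, 18.5 and 17.1 CPM in the CTL libraries and at 17.6, 16.5 and 17.9 CPM in the LIP libraries of day 0. On day 2 the levels were 15.6, 17.2 and 18.1 CPM in the CTL libraries and 20.2, 21.8 and 19.4 CPM in the LIP libraries. Every LIP library lay above every CTL library on day 2, and above every LIP library of day 0. The log2 fold change was 0.26 ± 0.136 for LIP over CTL on day 2 (adjusted p = 0.374) and 0.24 ± 0.115 for day 2 over day 0 in the LIP group (adjusted p = 0.0728). In the CTL group the change with stimulation was -0.12 ± 0.116 (adjusted p = 0.38), and the difference between the groups' changes was 0.36 ± 0.164 (unadjusted p = 0.0455, adjusted p = 0.302). On day 0 LIP over CTL was -0.08 ± 0.117 (adjusted p = 0.802). An antisense gene, Faddos, overlaps exons of Fadd and held 3 to 17 counts, against 117 to 233 for Fadd. The libraries were made with a directional kit, which keeps the strand, but whether the counting used it is not given in the sources used here, so how reads of both were divided is uncertain.

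Casp8 encodes the initiator caspase of the pathway. Its level on day 0 was 149, 145 and 114 CPM in the CTL libraries and 124, 123 and 122 CPM in the LIP libraries. On day 2 it was 129, 114 and 116 CPM in the CTL libraries and 134, 119.5 and 126 CPM in the LIP libraries. All 4 groups overlapped with each other, and CTL 94 was the lowest library of day 0. Stimulation changed it by -0.18 ± 0.106 on the log2 scale in the CTL group (adjusted p = 0.137) and by 0.04 ± 0.106 in the LIP group (adjusted p = 0.743). Without CTL 94 of day 0 the change in the CTL group was -0.26 ± 0.0961 and passed (adjusted p = 0.0296). LIP over CTL was -0.14 ± 0.0934 on day 0 (adjusted p = 0.545) and 0.07 ± 0.11 on day 2 (adjusted p = 0.795).

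Cflar encodes c-FLIP, which resembles caspase-8 but lacks its activity, and it lies next to Casp8 on chromosome 1, 36.3 kb away (chr1:58750321-58798047 and chr1:58834375-58886665, both plus strand). It was counted at 305, 350.1 and 322 CPM in the CTL libraries and at 299, 340.4 and 309 CPM in the LIP libraries of day 0. On day 2 the levels spread from 377 through 305 to 252 CPM in the CTL libraries and were 297, 396 and 430.4 CPM in the LIP libraries. The SD rose from 22.9 and 21.7 CPM on day 0 to 62.7 and 69.2 CPM on day 2, and all groups overlapped. LIP over CTL was -0.04 ± 0.0781 on day 0 (adjusted p = 0.861) and 0.26 ± 0.193 on day 2 (adjusted p = 0.541). The change with stimulation was -0.06 ± 0.152 in the CTL group (adjusted p = 0.721) and 0.24 ± 0.152 in the LIP group (adjusted p = 0.161), where it was 0.39 ± 0.134 and passed without LIP 90 (adjusted p = 0.0172). Counts per gene do not tell the long and the short form of c-FLIP apart.

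Ripk1 encodes a kinase that is a scaffold for survival signals and a starting point of necroptosis. It was counted at 96.9, 101 and 101 CPM in the CTL libraries and at 88.5, 86.0 and 86.5 CPM in the LIP libraries of day 0. On day 2 the levels were 85.7, 91.96 and 84.4 CPM in the CTL libraries and 97.8, 60.4 and 69.1 CPM in the LIP libraries. On day 0 every LIP library lay below every CTL library, at -0.19 ± 0.0673 on the log2 scale (unadjusted p = 0.0142, adjusted p = 0.234, and 0.173 to 0.795 over the alternatives without a replicate block). On day 2, LIP 96 and 97 lay below all CTL libraries and LIP 90 above them, at -0.22 ± 0.173 (adjusted p = 0.565). Without LIP 90 the day 2 value was -0.42 ± 0.118 and passed (adjusted p = 0.0454). That leaves LIP 96 and 97, the libraries with the higher B cell (22.1 and 19.6 CPM) and CD8 T cell (13.2 and 9.20 CPM) marker sums, whose part in the level of Ripk1 was not tested. The change with stimulation was -0.19 ± 0.139 in the CTL group (adjusted p = 0.23) and -0.20 ± 0.139 in the LIP group (adjusted p = 0.215). Without LIP 90 it was -0.42 ± 0.09 in the LIP group and passed (adjusted p = 8.23e-04). Exons of Ripk1 overlap Serpinb6a on the other strand (87 to 272 counts) and the pseudogene Gm17084 on the same strand (4 to 19 counts), against 533 to 1092 counts for Ripk1.

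**Figure D3:**
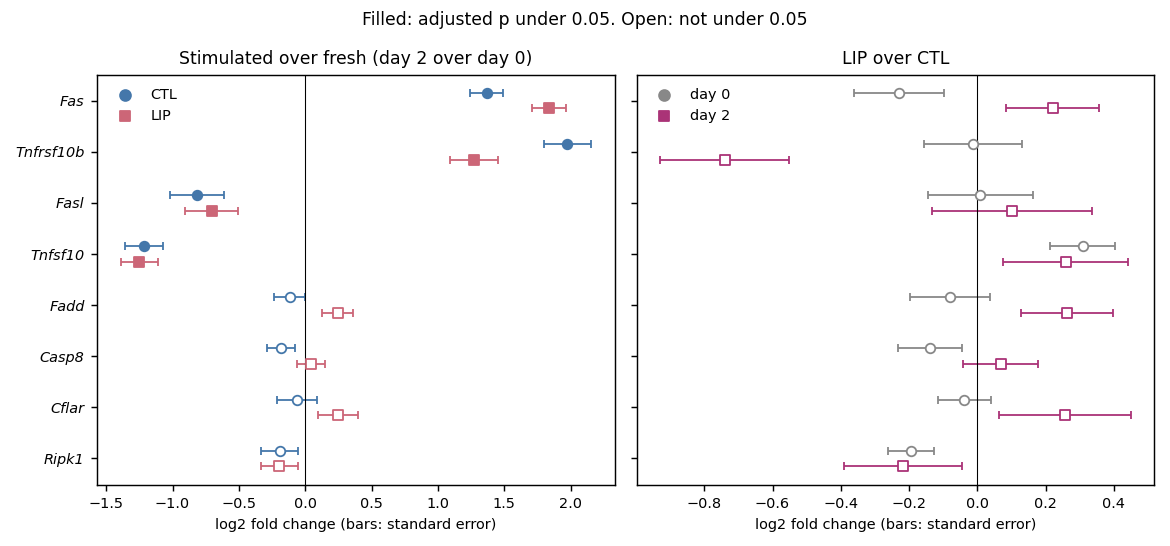
Log2 fold change (horizontal axes) of the 8 genes with stimulation in each group (left) and in LIP over CTL on each day (right); bars give the standard error, filled points an adjusted p under 0.05 and open points the rest. The ligands and receptors change with stimulation in both groups, and no point of LIP over CTL is filled.

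LIP against CTL asks whether periodontitis changed the pathway in fresh or stimulated cells. With edgeR, each day fitted alone and low counts filtered out, 0 of the 8 genes passed on either day. Of all genes, 0.427% passed on day 0 and 0% on day 2. Before adjustment, p was under 0.05 for 2 of the 8 genes (Ripk1 and Tnfsf10) on day 0 and for 1 (Tnfrsf10b) on day 2, beside 13.9% and 16.5% of all genes. The groups did not overlap for 3 of the 8 genes on day 0 (Fas, Ripk1 and Tnfsf10) and for 2 on day 2 (Fadd and Tnfrsf10b), beside 19.1% and 21.5% of all genes. DESeq2 called 0 of the 8 on day 0 and 1 on day 2, beside 206 of all 14064 genes tested and 489 of 14041. Without the filter, and with all 12 libraries in one fit, 1 of the 8 also passed on day 2, beside 662 of 25712 and 775 of 15475 genes. The test of whether stimulation acted differently in the groups called 0 of the 8, as it did 0.0517% of all genes. At an unadjusted p under 0.05 it held 3 (Fas, Fadd and Tnfrsf10b), beside 15.9% of all genes, and DESeq2 also called 0, beside 531 of all 15475 genes. Median log2 fold changes of LIP over CTL were -0.06 on day 0 and 0.16 on day 2 for the 8 genes, against 0.0088 and -0.0058 for all genes.

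Compared with each other per length of the canonical transcript, Casp8 and Cflar were the highest of the 8 genes in all groups, at 43.7 to 53.4 CPM per kb. Fadd (4.34 to 5.24 CPM per kb) ranked from 6 to 8 among the 8. Fas rose from 10.3 ± 0.326 (SD, n = 3) to 26.7 ± 1.8 CPM per kb in the CTL group, and Tnfrsf10b from 4.72 ± 0.649 to 18.5 ± 0.613 CPM per kb. The merged length of all exons lowered Cflar most, to 21.6 to 25.9 CPM per kb, and left Casp8 and Cflar on top in all groups. The canonical length was added after seeing the data. The ratio of receptor to ligand level, in CPM without regard to length and given as a description, was higher on day 2 than on day 0 in both groups. Fas over Fasl went from 1.03 ± 0.22 (SD, n = 3) to 4.67 ± 0.734 in the CTL group and from 0.857 ± 0.124 to 4.98 ± 0.407 in the LIP group. Tnfrsf10b over Tnfsf10 went from 0.434 ± 0.063 to 4.01 ± 0.493 in the CTL group and from 0.349 ± 0.0444 to 2.0 ± 0.575 in the LIP group. On day 2 this ratio ran from 3.44 to 4.34 in the CTL libraries and from 1.43 to 2.58 in the LIP libraries, without overlap. The ratio of Cflar to Casp8 was 2.43 ± 0.385 and 2.57 ± 0.183 on day 0 and 2.59 ± 0.376 and 2.98 ± 0.663 on day 2 (CTL and LIP), with overlapping ranges.

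Ordered by their group means, Fas ran from LIP day 2 through CTL day 2 and CTL day 0 to LIP day 0, and of these neighbours only the LIP and CTL groups of day 2 overlapped. For Tnfrsf10b the order was CTL day 2, LIP day 2, CTL day 0 and LIP day 0, and the last pair overlapped. Tnfsf10 ran from LIP day 0 through CTL day 0 and LIP day 2 to CTL day 2, with an overlap between the groups of day 2. For Fasl the groups of one day overlapped each other and the days did not. In Fadd, Casp8 and Cflar all neighbours overlapped, and in Ripk1 the CTL group of day 0 lay above the next group, CTL of day 2, without overlap.

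Of the other 56 genes listed for the pathway, 53 were tested for change with stimulation. In the CTL group 27 rose, 15 fell and 11 did not pass, and in the LIP group 29 rose, 12 fell and 12 did not pass, beside 69% and 71.8% of all genes that passed. Their median log2 fold change was 0.25 in CTL and 0.34 in LIP, beside the medians of all genes given above. In LIP over CTL, 0 of 51 passed on day 0 and 0 of 53 on day 2, where 9 and 10 had an unadjusted p under 0.05, beside 13.9% and 16.5% of all genes, and DESeq2 called 0 and 3.

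**Figure D4:**
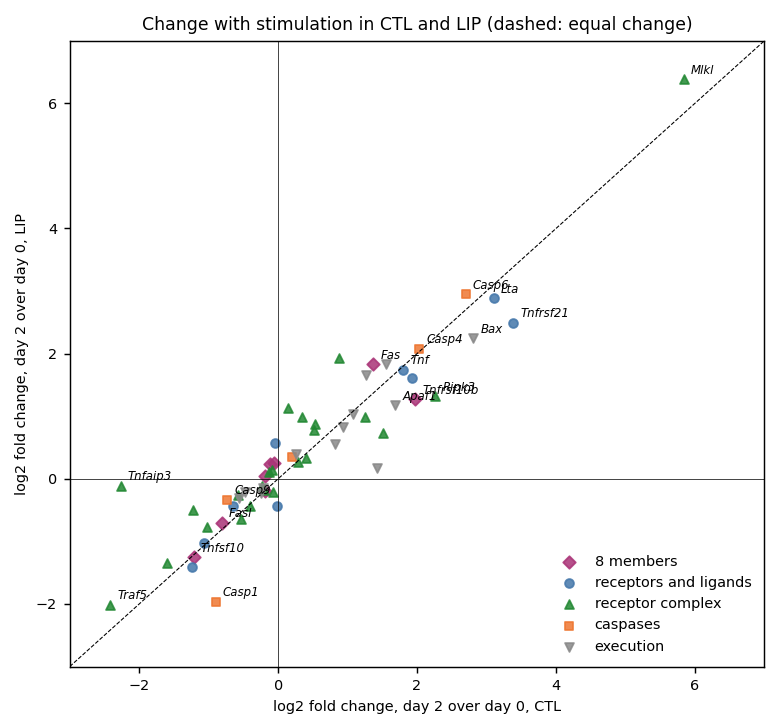
Log2 fold change with stimulation in the CTL group (horizontal axis) and the LIP group (vertical axis) for the 8 genes (diamonds) and 51 other pathway genes; the dashed line marks equal change. Mlkl rises most in both groups, and Tnfaip3 lies farthest from the line.

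Among the other receptors and ligands, the cytokine genes rose with stimulation, as the log2 fold changes of Tnf (1.80 ± 0.114 in CTL and 1.74 ± 0.113 in LIP) and of Lta (3.10 ± 0.207 and 2.89 ± 0.202) show. The adjusted p was at most 3.4e-08 for these. Tnfrsf1a, the receptor for tumor necrosis factor with a death domain, fell (log2 fold change -0.65 ± 0.105 and -0.43 ± 0.104, adjusted p = 8.53e-05 and 0.00213). Tnfrsf25, another death domain receptor, fell as well (-1.24 ± 0.217 and -1.42 ± 0.212, adjusted p = 1.84e-04 and 4.44e-05). Of the TRAIL receptors without a working death domain, Tnfrsf22 fell (-1.06 ± 0.154 and -1.02 ± 0.152) and Tnfrsf23 rose (1.93 ± 0.321 and 1.60 ± 0.319), each with an adjusted p of at most 5.02e-04. Tnfrsf21 rose from 0 to 0.658 CPM in the libraries of day 0 to 1.04 to 4.09 CPM on day 2 (3.38 ± 0.658 and 2.49 ± 0.691, adjusted p = 4.28e-04 and 0.00534). It had 0 to 5 counts per library on day 0, so that the size of the change is uncertain. Tnfrsf1b and Tnfrsf26 did not pass in the CTL group (-0.02 ± 0.163 and -0.04 ± 0.24, adjusted p = 0.92 and 0.881). In the LIP group Tnfrsf1b fell (-0.43 ± 0.163, adjusted p = 0.0283) and Tnfrsf26 rose (0.56 ± 0.239, adjusted p = 0.0473). The difference between the groups did not pass for either (adjusted p = 0.414 for each). Tnfrsf1b lost its call without any of LIP 93 or 94 of day 0 and LIP 96 or 97 of day 2, at -0.42 to -0.30 (adjusted p up to 0.13). Tnfrsf26 lost it without any LIP library but 90, at 0.25 to 0.63 (adjusted p up to 0.308), and with the LIP libraries alone in the fit (0.55 ± 0.282, adjusted p = 0.108). Tnfsf15 was not tested because of low counts.

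Among the other caspase genes, Casp6, which acts downstream of the initiators, was counted at 15.97, 15.1 and 15.7 CPM in the CTL libraries and at 14.2, 14.5 and 15.2 CPM in the LIP libraries of day 0. After stimulation it was at 117, 99.4 and 86.1 CPM in the CTL libraries and at 136, 131 and 72.0 CPM in the LIP libraries. All libraries of day 2 lay above all of day 0, and LIP and CTL overlapped on both days. Casp6 rose by 2.70 ± 0.211 on the log2 scale in CTL (adjusted p = 1.07e-07) and by 2.95 ± 0.213 in LIP (adjusted p = 4.65e-08). Casp9, the initiator of the mitochondrial pathway, fell in the CTL group (-0.73 ± 0.174, adjusted p = 0.00196) and had -0.34 ± 0.174 in the LIP group (adjusted p = 0.0959). Casp2 rose in the LIP group (0.34 ± 0.104, adjusted p = 0.00953) and had 0.20 ± 0.104 in the CTL group (adjusted p = 0.0985). For neither gene did the difference between groups pass (adjusted p = 0.468 for Casp9 and 0.702 for Casp2). Without CTL 93 of day 2, Casp2 also passed in the CTL group (0.28 ± 0.11, adjusted p = 0.0386).

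The inflammatory caspases went in opposite directions. Casp4 rose by 2.03 ± 0.355 in CTL and 2.08 ± 0.345 in LIP (adjusted p = 1.8e-04 and 1.08e-04). Casp1 fell in both groups (-0.90 ± 0.279 and -1.97 ± 0.284, adjusted p = 0.0109 and 3.11e-05), though the CTL value did not pass without CTL 94 of day 0 (-0.66 ± 0.303, adjusted p = 0.0719). Casp1 was at 17.0, 10.7 and 20.1 CPM in the CTL libraries and 18.6, 27.0 and 24.6 CPM in the LIP libraries of day 0, and at 11.4, 8.96 and 5.11 CPM and 5.91, 5.15 and 7.00 CPM on day 2. The steeper fall in the LIP group, by -1.07 ± 0.397, had an unadjusted p of 0.0181 and an adjusted p of 0.207. Myeloid cells express Casp1 strongly, and the myeloid marker levels given with the ligands fell with it, whose part was not tested. Casp12 and Casp14 were not tested because of low counts.

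**Figure D5:**
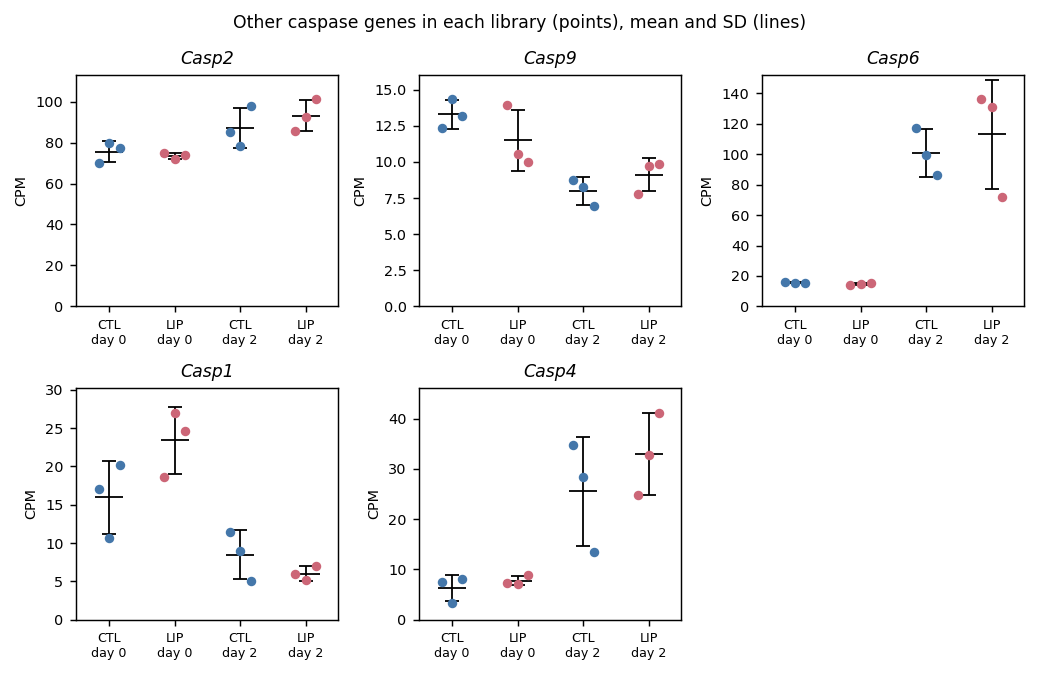
Level in CPM (vertical axis, from 0) of 5 other caspase genes in the 12 libraries by group, with the mean (wide line) and SD (bars) of 3 libraries. Casp6 is low in all libraries of day 0 and high in all of day 2, while the groups of Casp2 differ least relative to their level.

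Genes of the receptor complexes changed in both directions, 10 higher and 8 lower of 24 in CTL and 11 higher and 6 lower in LIP. The 18 and 17 that passed lay near the share of all genes (69% and 71.8%). Mlkl, whose product breaks the plasma membrane in necroptosis, rose from 0 to 0.921 CPM on day 0 (0 to 7 counts, so that the size of the change is uncertain) to 17.9 to 34.7 CPM on day 2. Its adjusted p was 3.5e-08 in CTL and 1.15e-08 in LIP. On day 2 it was higher in all LIP libraries than in all CTL libraries (0.58 ± 0.151 on the log2 scale, unadjusted p = 0.00425, adjusted p = 0.15). Ripk3, the kinase that activates MLKL, rose by 2.26 ± 0.187 and 1.32 ± 0.181 (adjusted p = 1.73e-07 and 1.9e-05). Its level on day 0 was 13.5 to 17.2 CPM in the CTL libraries and 20.7 to 22.6 CPM in the LIP libraries. There LIP over CTL was 0.45 ± 0.13 on the log2 scale (unadjusted p = 0.00486, adjusted p = 0.164). On day 2 Ripk3 was at 72.9, 84.0 and 72.8 CPM in the CTL libraries and at 73.2, 44.9 and 44.2 CPM in the LIP libraries, with LIP 90 the high one, as for Tnfrsf10b and Ripk1. Map3k7, a kinase of survival signalling, rose by 1.51 ± 0.129 and 0.73 ± 0.128 (adjusted p = 2.43e-07 and 1.65e-04). The groups' changes differed by -0.94 ± 0.257 for Ripk3 (adjusted p = 0.112) and by -0.78 ± 0.18 for Map3k7 (adjusted p = 0.0871).

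Traf5, an adaptor of the receptor family, fell by the largest amount of the list (-2.41 ± 0.147 and -2.01 ± 0.145, adjusted p = 1.11e-08 and 4.43e-08), and Dedd2 had -1.60 ± 0.124 and -1.34 ± 0.123 (adjusted p = 9.22e-08 and 4.03e-07). Tnfaip3 encodes A20, which limits NF-kB signals. It was at 833, 577 and 165 CPM in the CTL libraries of day 0 and at 187, 125 and 108 CPM in the LIP libraries, with CTL 94 among the LIP levels. Tnfaip3 fell with stimulation in the CTL group (-2.27 ± 0.429, adjusted p = 3.5e-04), and was at -0.11 ± 0.415 in the LIP group (adjusted p = 0.819). The difference between these changes was 2.16 ± 0.59 (adjusted p = 0.112), and LIP over CTL on day 0 was -1.90 ± 0.423 (adjusted p = 0.0872).

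Of the 13 downstream genes listed for the execution of cell death, 9 rose and 2 fell in CTL, and 8 rose and 1 fell in LIP, beside 35.3% of all genes higher and 33.7% lower in CTL and 36.6% and 35.2% in LIP. Bax, which permeabilizes the outer mitochondrial membrane, was at 118, 128 and 139.7 CPM in the CTL libraries and at 119, 69.3 and 69.1 CPM in the LIP libraries of day 2, from 15.6 to 19.7 CPM on day 0 (log2 fold change 2.81 ± 0.199 and 2.25 ± 0.197, adjusted p = 4.26e-08 and 2.8e-07). Bak1 (1.55 ± 0.134 and 1.84 ± 0.135) and Apaf1 (1.68 ± 0.107 and 1.17 ± 0.106), which forms the complex that activates caspase-9, rose as well, with an adjusted p of at most 3.69e-07. Xiap, an inhibitor of caspases, rose slightly (0.25 ± 0.107 and 0.39 ± 0.107, adjusted p = 0.0484 and 0.00503). In the CTL group Xiap passed under none of the alternatives without a replicate block but the omission of CTL 94 of day 0 or CTL 93 of day 2, and was 0.17 without CTL 92 of day 2 (adjusted p = 0.193). Rock1, a kinase cleaved by caspases, fell (-0.48 ± 0.0906 and -0.22 ± 0.0904, adjusted p = 3.31e-04 and 0.0432), but in the LIP group it kept its call only with DESeq2 or without LIP 94 of day 0 or LIP 90 of day 2, with an adjusted p of up to 0.258 under the others without a replicate block. Diablo, an antagonist of XIAP, fell in the CTL group (-0.57 ± 0.166, adjusted p = 0.00738) and was at -0.31 ± 0.164 in the LIP group (adjusted p = 0.103), where it passed without LIP 90 (-0.43 ± 0.169, adjusted p = 0.0365).

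The genes whose levels were most like each of the 8 over the 12 libraries were found by Pearson's r of log2 CPM, given as a description, since the libraries share their day and group. Fas was most like Fkbp1a and Traf6 (r = 0.995 for each) and Tnfrsf10b most like Ccng1 (0.995) and Rnd3 (0.991). Fasl was most like Paqr8 (0.967) and Cass4 (0.966), and Tnfsf10 most like Cry2 (0.988) and Insm2 (0.979). With 1400 genes over 0.95 for Fas, 504 for Tnfrsf10b and 234 for Tnfsf10, many genes followed the same change between days, whereas Fasl had 9. For the other genes the closest were Cd247 (0.902) and Txnl4b (0.878) for Fadd, Rab5a (0.833) and Gm20463 (0.801) for Casp8, Thrb (0.873) and Traf1 (0.865) for Cflar, and Bag3 (0.926) and 5730507A11Rik (0.923) for Ripk1.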

How the data were processed

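RNA was measured in 12 libraries of purified splenic CD4+ T cells, assigned to their groups by the sample titles. After quality control with FastQC 0.11.9 and trimming, the authors quantified genes on GRCm39 with RSEM 1.3.0, using Bowtie2, and deposited the expected counts. The submitters' notes give Trimmomatic 0.38, where the methods state an earlier version and an alignment with HISAT2. The annotation release and the strand setting of the counting are not given in the sources used here. Tables deposited by the authors for the separate days hold a normalized signal, log2 fold changes and p-values, and only their gene symbols were used. In these tables, 2 signal columns are of libraries without a label here and were not used.

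The expected counts, 73267 of which were not whole, were rounded and tested with edgeR 4.0.16 under R 4.3.3 (filterByExpr, TMM, quasi-likelihood test, two-sided) and Benjamini-Hochberg adjustment over all genes tested. Each day was fitted alone for LIP over CTL, and all 12 libraries together for change with stimulation and for its difference between the groups. Errors of log2 fold changes are standard errors, which reflect the spread between libraries. The depth was 6249018 to 12866718 counts per library, and only the limit for a count of 0 is one of counting error. Positions and lengths came from GENCODE annotation of GRCm39, and promoter bases from RefSeq.

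The 8 genes, the lists and the tests were chosen with earlier results of these data known. Named besides the 8 are all genes listed as other receptors, ligands and caspases, from the complex and the execution list each the 3 genes with the highest and the 3 with the lowest change among those called with stimulation in the CTL group, and for each of the 8 the 2 genes most like it, except that 2 caspase genes are not reported here. Alternatives were RLE normalization, DESeq2 1.42.0, no filter on low counts, other sets of libraries in the fit, leaving out each library and, added after seeing the data, the replicate number as a block. The fits were tested on simulated data. Tables and figures used pandas 2.3.3 and matplotlib 3.10.9.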

Additional observations from a re-analysis of the deposited data

How the results depend on the processing

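With stimulation, the number of the 8 genes that passed stayed between 4 and 5 in the CTL group and between 4 and 6 in the LIP group under all alternatives without a replicate block, and Fas, Fasl, Tnfsf10 and Tnfrsf10b kept their direction and passed in each. LIP over CTL on day 2 called 1 of the 8 genes (0 with all libraries in the day's own fit) and 3 other pathway genes with DESeq2, 1 and 4 without the filter on low counts, and 1 and 5 with all 12 libraries in one fit, where 489, 662 and 775 of all genes passed, against 0 in the day's own fit. The other pathway genes also went from 0 to 2 on day 0 without the filter (645 of all genes, against 60 with it), and for the difference between the groups' changes to 6 with DESeq2 and 8 without the filter, where 531 and 815 of all genes passed, against 8. Leaving out 1 library at a time gave 0 to 2 of the 8 genes and 0 to 14 others on day 2, 0 to 4 others on day 0, and 0 to 2 of the 8 and 0 to 11 others for the difference between changes. The highest of these came without LIP 90 of day 2 (2014 of all genes on day 2 and 1596 for the difference between changes), and on day 0 without CTL 94 (658 of all genes), which also gave 1 other gene for the difference between changes.

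Without a replicate block, signs changed for values near 0. Fasl in LIP over CTL on day 0 was -0.00101 in one fit of 12 libraries, Tnfrsf1b with stimulation in CTL was 0.018 without the filter, and the difference between changes of Ripk1 was 0.0132 with RLE and 0.0132 with DESeq2. Leaving out 1 library gave LIP over CTL of -0.12 to 0.14 (Fasl), -0.094 to 0.012 (Cflar) and -0.13 to 0.053 (Tnfrsf10b) on day 0, and -0.037 to 0.29 for Fasl on day 2. With stimulation it gave -0.22 to 0.072 for Cflar, -0.17 to 0.11 for Tnfrsf1b and -0.14 to 0.061 for Tnfrsf26 in CTL, and -0.27 to 0.17 for Tnfaip3 in LIP. The difference between changes ran from -0.036 to 0.31 (Fasl), -0.23 to 0.14 (Ripk1) and -0.14 to 0.095 (Tnfsf10). The cause of these changes was not tested. With 3 libraries in a group, a two-sided exact permutation test could not go below 0.1.

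In the labels, 4 numbers recur between groups (94, 92, 93 and 97), and the deviations of libraries with the same number correlated at -0.0546 to 0.104, against -0.138 to 0.108 for those with different numbers. The highest of the same-number values was that of CTL 94 and LIP 94 of day 0. With 4 such pairs this is too few to decide whether the numbers mark libraries handled together. The main fits did not pair them. Within 1 day, the number as a block left 0 residual degrees of freedom. In the fit of all 12 libraries, chosen after seeing the data, the replicate block left 1. With it, 3 of the 8 genes passed with stimulation in CTL and 4 in LIP, beside 6847 and 6884 of all genes, and Fasl passed in neither group (-0.45 ± 0.345 and -0.08 ± 0.381, adjusted p = 0.301 and 0.886). The 4 in LIP include Cflar, which gained its call with the block (0.86 ± 0.217, adjusted p = 0.00208). LIP over CTL on day 2 called 2 of the 8 genes (Cflar and Tnfrsf10b) and 14 others with the block, beside 1404 of all genes, and the difference between changes called 0 and 6, beside 550. The block turned the sign of LIP over CTL on day 0 for Fadd (0.066) and Casp8 (0.0984), of change with stimulation in CTL for Fadd (0.0094), Casp8 (0.075), Cflar (0.031), Tnfrsf1b (0.12) and Tnfrsf26 (0.048), and in LIP for Tnfaip3 (0.37). With stimulation, calls were lost for Tnfrsf1a and Tnfrsf21 in both groups (adjusted p = 0.135 to 0.271). In CTL they were also lost for Casp9 (adjusted p = 0.0503) and Xiap (adjusted p = 0.842). In LIP they were lost for Tnfrsf1b, Casp1, Casp2, Xiap and Rock1 (adjusted p = 0.199 to 0.429), while Diablo gained one (adjusted p = 0.00139).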
